A study of Mus musculus with 5 samples.

Results

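The genes described here serve the endoplasmic reticulum, the compartment in which secreted and membrane proteins are made, folded and checked. They were chosen as a fixed list of 42 gene symbols, and all 42 were found among the 55573 genes of the table. The list holds 9 translocation genes, 11 chaperones, 7 disulfide enzymes, 8 degradation genes and 7 stress sensors and factors. One symbol, Ddit3, stands on a pair of overlapping rows of chromosome 10, so the table has 43 rows for the list, and the row with nearly all counts is used. All 42 passed the filter on low counts.

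The study compared tumours with normal pancreas by RNA sequencing. The tumour group holds 3 libraries from mice of the genotype Th-Cre:MYC, in which Cre under the tyrosine hydroxylase promoter removes a stop in front of a CAG-driven MYC transgene. The control group holds 2 libraries of normal pancreas from wild-type littermates, whose pancreas was perfused with an RNase inhibitor before it was taken out. The comparison asks how expression differs between the tumours, offered as a MYC-driven neuroblastoma model, and normal pancreas. Tumour replicates 1 and 2 share the number 86 in their titles, and the third carries 114; what the number stands for is not stated. All are bulk tissue, in which fewer cells of a type and less RNA per cell cannot be told apart. The labels used here give no age, treatment or library kit.

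Secretory proteins enter the endoplasmic reticulum through the Sec61 channel. Inside it Hspa5 (BiP) and other chaperones hold them while protein disulfide isomerases form their disulfide bonds, and chains that fail to fold are sent back to the cytosol for degradation. Unfolded protein is sensed by Ern1 (IRE1), Atf6 and Eif2ak3 (PERK), which switch on the unfolded protein response. Pancreatic acinar cells, which secrete digestive enzymes, are a textbook example of a cell rich in this machinery.

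The libraries differed in content in a way that bears on every direction below. The 30 genes that dominate normal pancreas (the acinar markers and any gene above 0.5% of a normal library) took 87.7% and 88.4% of the normal counts and 0.0137% to 0.521% of the tumour counts. The class of small non-coding RNAs called misc_RNA took at most 0.00116% of a normal library and 22.0% to 25.3% of a tumour library. The labels describe 1 preparation for all, apart from the perfusion given for the control pancreas. The column headers carry a separate number series for each group, and what it stands for is not stated. Any difference in preparation between the groups cannot be told apart from the tissue in any fold change below. Library totals ran from 6611967 to 51669489 estimated counts. Summed acinar marker TPM (transcript abundance per length, summing to the same total in each library) was 568539 and 558884 in normal pancreas and 108, 37.7 and 1122 in the tumours, so replicate 3 held the most acinar RNA. Summed islet and neuroendocrine marker TPM was 46.3 and 48.2 in normal pancreas and 41737, 15799 and 25310 in the tumours, where 12 of the 14 markers were higher with TMM. Plasma and B cell markers summed to 6.52 and 4.06 TPM in normal pancreas and to 16.7, 73.5 and 11.97 in the tumours, highest in replicate 2. The part of these differences in the results below was not tested except where a value is given.

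Most members were lower in the tumours, and a few were higher, once libraries were scaled by TMM, a method that sets the bulk of genes level. By edgeR's quasi-likelihood test with Benjamini-Hochberg adjustment over 16810 genes (adjusted p under 0.05), 35 of the 42 were lower, 4 higher and 3 did not pass. Over all genes tested 27.8% were lower and 39.2% higher. The median log2 fold change (tumour over normal) was -1.79 for the members and 0.38 for all genes.

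Scaling moved these counts strongly. With total counts only, 28 members were higher and 8 lower, beside 93.3% and 2.37% of all genes, and the medians were 1.38 for the members and 3.55 for all genes. Scaled on 51 ribosomal protein genes, 11 were higher and 18 lower, beside 69.6% and 7.28% of all genes, with medians of -0.41 and 1.74. Scaled on the 42 members themselves, so that a change is relative to the rest of the list, 16 were higher and 17 lower, beside 79.2% and 5.35% of all genes. The medians there were 0.01 for the members and 2.19 for all genes. A member called higher relative to the list may therefore still lie below the median of all genes. By limma on log2(TPM + 1), 12 were higher and 19 lower, beside 63.4% and 6.98% of all genes, and on log2(TPM + 0.1) the counts were the same, beside 68.8% and 7.09%. Under all 7 scalings run, 8 members were lower: Pdia2, Derl3, Trib3, Ero1lb, Sel1l, Edem1, Creld2 and Ddit3. Canx, Pdia3, Pdia4 and Ero1l were higher under all 7. For 21 members the call changed direction between scalings, so a TMM value of theirs is no direction by itself, and the value relative to the list is given beside their TPM for those described singly. Calls kept or turned across the 7 scalings were not counted over all genes, so these counts do not set the members apart from other genes.

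**Figure D1:**
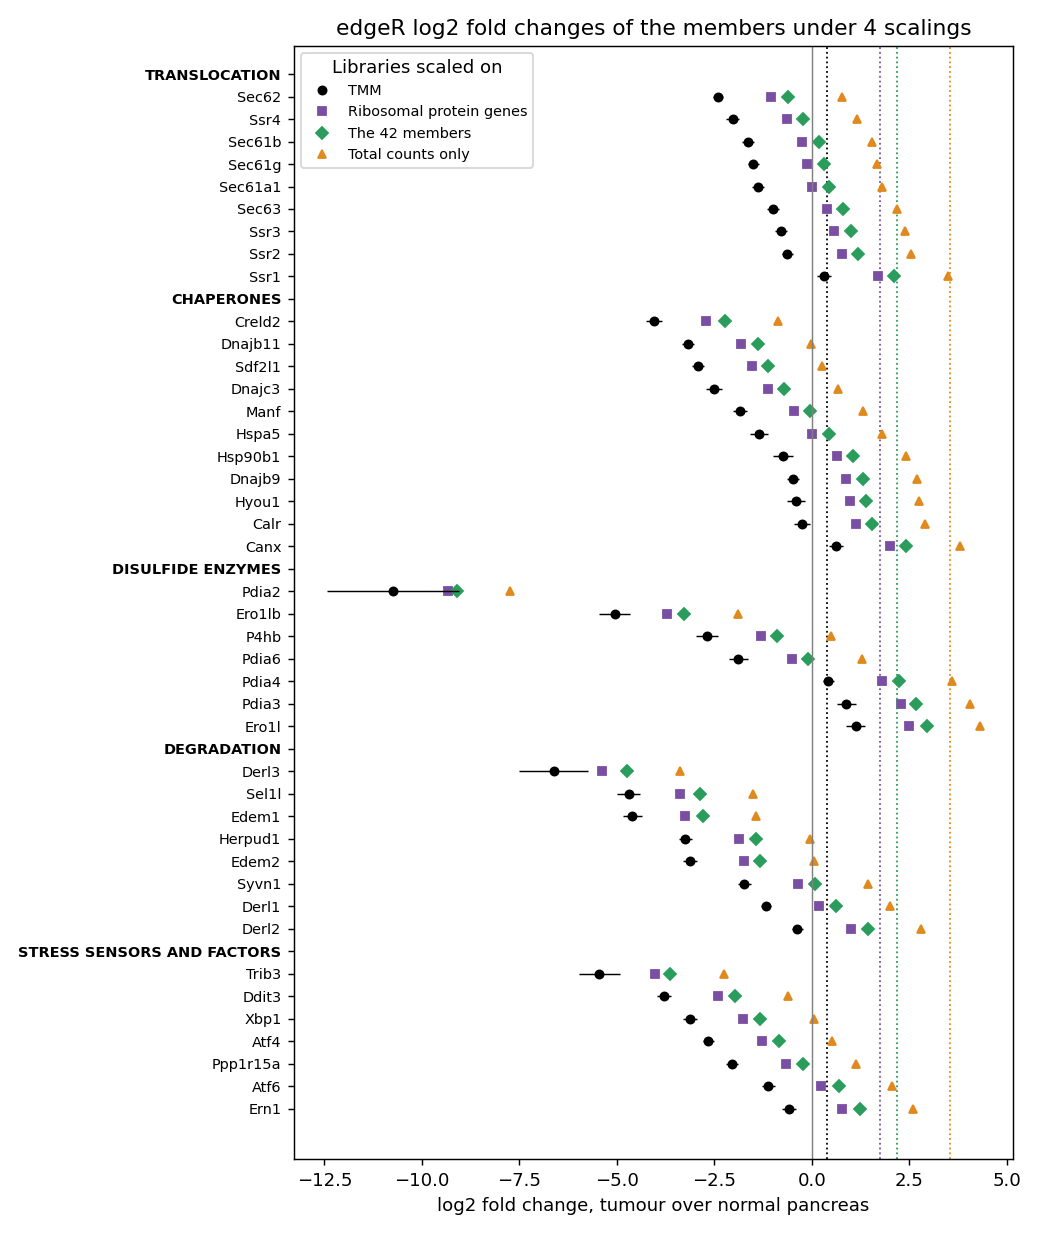
Log2 fold change (tumour over normal pancreas, edgeR) of each member under 4 scalings, with classes in capitals and bars showing the SE of the TMM value; dotted lines mark the median of all genes under each scaling. The 4 series run in parallel from gene to gene, and Pdia2 lies far to the left of every other member under each of them.

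Per length and in TPM, 22 members were below both normal libraries in every tumour, 16 were above them and 4 overlapped. Over all genes tested these shares were 9.39% below and 76.1% above. Because of the fixed sum of TPM, acinar transcripts in normal pancreas lower the TPM of every other gene there. In the tumours misc_RNA, at 22.0% to 25.3% of the counts, does the same to every other gene, and its share of TPM was not computed. TPM directions and sums thus carry both effects, and their sizes were not separated.

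**Figure D2:**
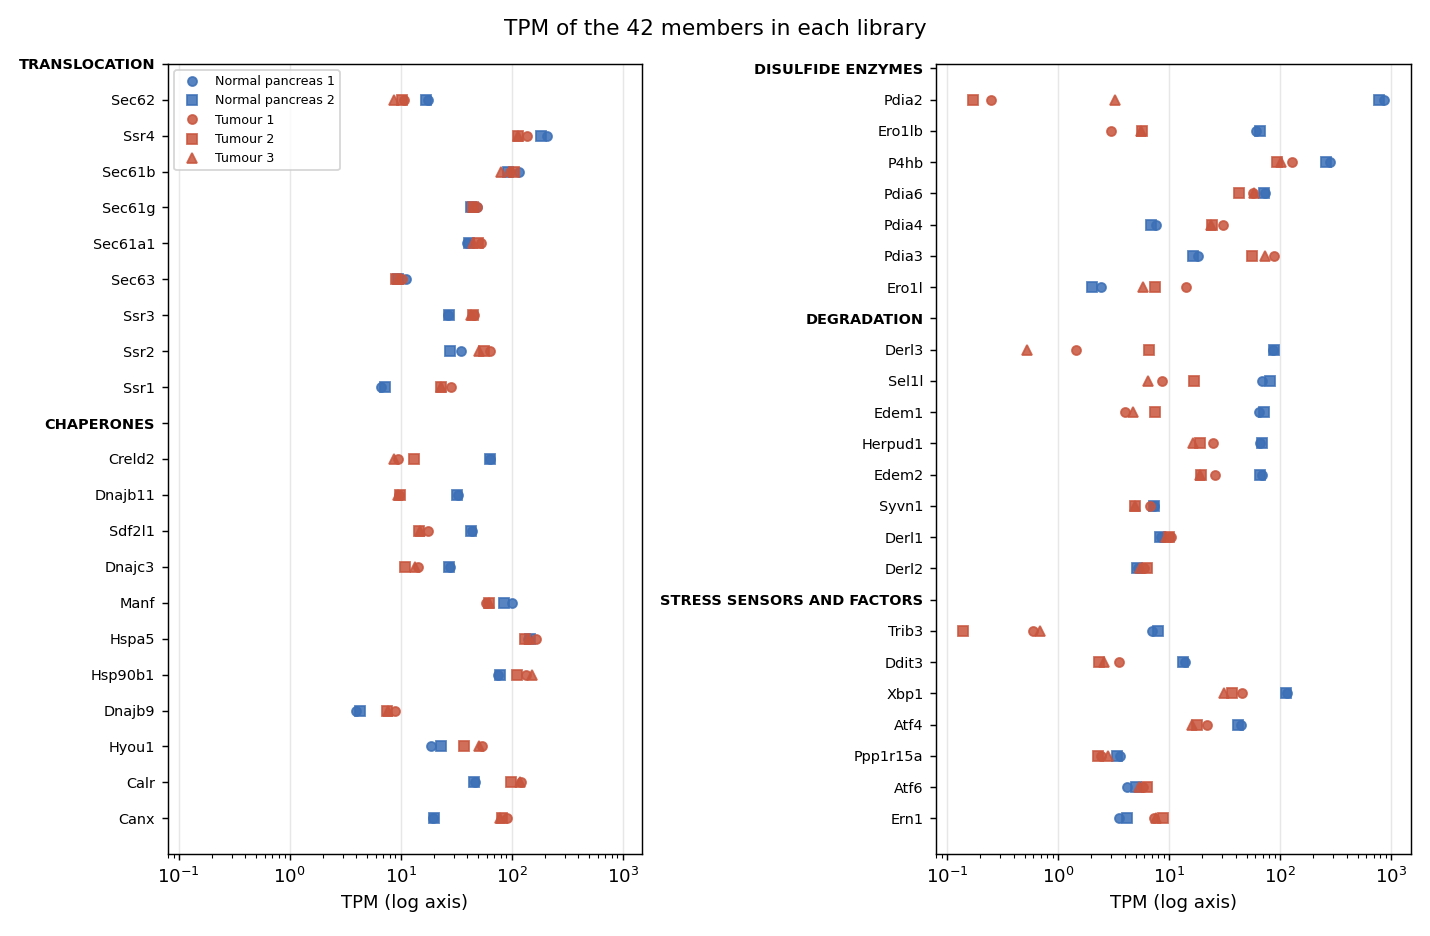
TPM (log axis) of each member in the 2 normal pancreas libraries (blue) and the 3 tumours (red), with classes in capitals. Pdia2, Derl3 and Trib3 spread most between tumours, whereas Sec61b, Sec61g, Sec63 and Hspa5 overlap between tissues.

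The make-up of the list shifted between classes, and this does not depend on library scaling. Disulfide enzymes made up 43.5% ± 1.05 (SD, n = 2) of the summed member TPM in normal pancreas and 17.9% ± 1.63 (SD, n = 3) in the tumours. Chaperones went from 19.9% ± 0.626 (SD, n = 2) to 41.9% ± 2.27 (SD, n = 3), and translocation genes from 16.6% ± 0.810 (SD, n = 2) to 29.9% ± 1.89 (SD, n = 3). Degradation genes went from 13.4% ± 1.04 (SD, n = 2) to 5.37% ± 0.908 (SD, n = 3). Stress sensors and factors went from 6.61% ± 0.196 (SD, n = 2) to 4.94% ± 0.425 (SD, n = 3). In each class the groups did not overlap. Pdia2 alone carried most of the disulfide difference and bore on every other share: without it the disulfide class held 21.01% of the remaining member TPM in normal pancreas and 17.8% in the tumours. Without it chaperones went from 27.8% to 41.97% and translocation genes from 23.2% to 29.9%, while degradation genes went from 18.7% to 5.37% and the stress class from 9.24% to 4.95%. In summed TPM the translocation genes were nearly level, at 480.0 ± 41.5 (SD, n = 2) and 457 ± 37.7 (SD, n = 3). Summed over all members, TPM was 2964 and 2810 in normal pancreas and 1679, 1433 and 1487 in the tumours. The direction of this total depended on the unit. Of all estimated counts the members took 0.472% and 0.460% in normal pancreas and 0.926%, 0.847% and 0.934% in the tumours. Of the counts outside the 30 dominant genes they took 3.84% and 3.96% against 0.926%, 0.847% and 0.939%.

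**Figure D3:**
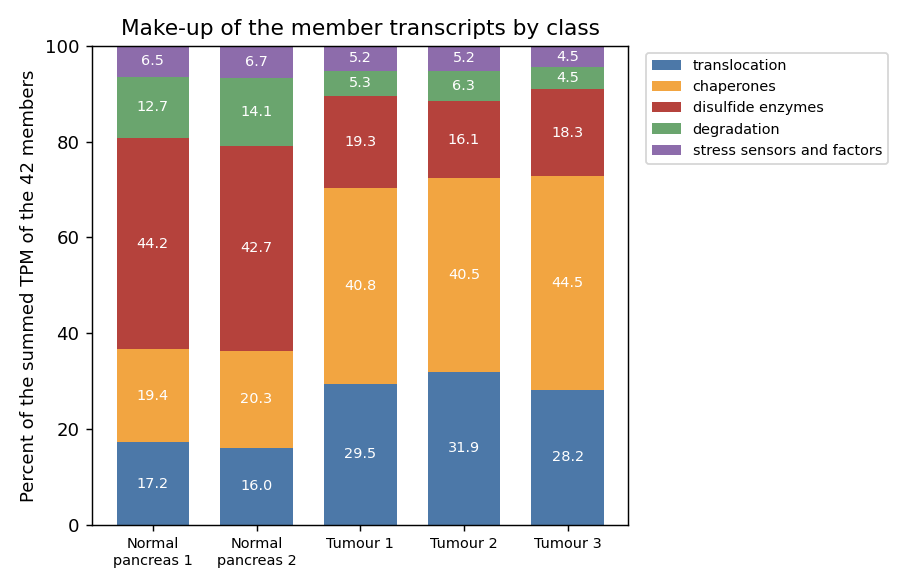
Percent of the summed TPM of the 42 members that each class holds, per library. Disulfide enzymes hold 44.2% and 42.7% in the normal libraries and 16.1% to 19.3% in the tumours, whereas chaperones hold 40.5% or more in every tumour.

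Many genes of this response carry the endoplasmic reticulum stress element (ERSE), to which Atf6 and NF-Y bind, in their promoters, so the promoters were searched for it. RefSeq promoters on GRCm38.p6 were at hand for 34 of the 42 members, and the 250 bases before the start were read on both strands. The ERSE was searched as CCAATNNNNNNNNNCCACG and stood in 9 of 34 members (26.5%) and in 37 of all 32851 promoters (0.113%). The related ERSE-II, searched as ATTGGNCCACG, stood in Herpud1 alone of the members and in 10 promoters in all (0.0304%). The UPRE core TGACGTGG stood in no member and in 0.563% of promoters. The CARE form TGATGNAA, searched for Atf4, stood in Herpud1 and in 3.45% of promoters. Members were counted by gene and all promoters by entry. The ERSE is known from genes of this response, so its share among the members is no test. The ERSE and ERSE-II matches are shown because members that carry them lie at both ends of the list. Each is printed in the direction of the gene, with the match in capitals, ordered from the most raised to the most lowered member relative to the list, with Herpud1 and its ERSE-II last. Lines are shorter where an annotated exon of any gene overlaps.
Canx (chr11:50325760-50325858, - strand): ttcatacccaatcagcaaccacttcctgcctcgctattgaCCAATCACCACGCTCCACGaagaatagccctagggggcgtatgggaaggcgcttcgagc
Calr (chr8:84847035-84847133, - strand): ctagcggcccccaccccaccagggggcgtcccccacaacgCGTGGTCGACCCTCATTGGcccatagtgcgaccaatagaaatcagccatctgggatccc
Hsp90b1 at 194 bases (chr10:86705598-86705694, - strand): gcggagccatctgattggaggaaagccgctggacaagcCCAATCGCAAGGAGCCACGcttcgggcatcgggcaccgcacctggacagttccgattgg
Hsp90b1 at 89 bases (chr10:86705528-86705556, - strand): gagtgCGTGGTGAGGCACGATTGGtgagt
Hspa5 (chr2:34772020-34772048, + strand): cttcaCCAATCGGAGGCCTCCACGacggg
Syvn1 (chr19:6046492-6046575, + strand): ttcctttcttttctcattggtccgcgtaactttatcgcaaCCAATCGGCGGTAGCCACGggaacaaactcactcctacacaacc
Pdia6 (chr12:17266486-17266514, + strand): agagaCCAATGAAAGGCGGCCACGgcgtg
Dnajc3 (chr14:118937787-118937885, + strand): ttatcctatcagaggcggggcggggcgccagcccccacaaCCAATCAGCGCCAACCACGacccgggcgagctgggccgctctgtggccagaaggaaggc
Creld2 (chr15:88819480-88819578, + strand): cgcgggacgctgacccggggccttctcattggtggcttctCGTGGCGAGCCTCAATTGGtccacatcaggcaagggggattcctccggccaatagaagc
Derl3 (chr10:75893202-75893300, + strand): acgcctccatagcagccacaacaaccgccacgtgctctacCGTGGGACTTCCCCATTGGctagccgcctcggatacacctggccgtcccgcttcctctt
Herpud1 (chr8:94386337-94386427, + strand): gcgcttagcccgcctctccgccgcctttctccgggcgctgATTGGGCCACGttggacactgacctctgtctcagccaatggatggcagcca
The match reads as CGTGG to ATTGG where it lies on the opposite strand, as in Calr, Creld2, Derl3 and the nearer match of Hsp90b1. Canx, Calr and Hsp90b1 carry an ERSE and lay above the list by 2.42, 1.53 and 1.04 on the log2 scale. Creld2 and Derl3 carry one too and lay below it, at -2.23 and -4.74. A match is a description of these letters and not of binding.

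Among the translocation genes, 8 of 9 were lower with TMM and 1 did not pass, beside 27.8% of all genes lower. All 9 were higher with total counts only, where 93.3% of all genes were higher. Relative to the list 4 were higher and 1 lower, beside 79.2% and 5.35% of all genes. The channel itself stayed close to the middle of the list. Sec61a1, its pore subunit, stood at 39.9 and 40.9 TPM in normal pancreas and at 53.3, 50.1 and 44.8 in the tumours. Sec61b was at 116 and 92.96 TPM against 96.9, 104 and 80.4, and Sec61g at 48.5 and 42.96 against 48.9, 45.25 and 45.1. The groups overlapped for both small subunits but not for Sec61a1. Relative to the list none of the 3 passed the test (log2 0.44, 0.18 and 0.31, edgeR adjusted p = 0.0654, 0.400 and 0.124). Reads of Sec61b and Sec61g were in part split with other genes by the authors' counting, which left fractions in their counts.

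Sec62 and Sec63 help proteins enter after their synthesis, and they parted. Sec62 was at 17.65 and 17.04 TPM in normal pancreas and at 10.7, 10.2 and 8.74 in the tumours, and was lower relative to the list (log2 -0.60, edgeR adjusted p = 0.0167). Sec63, at 11.2 and 9.43 TPM against 10.3, 9.09 and 9.56, was higher relative to it (log2 0.81, edgeR adjusted p = 0.00216). By limma on log2(TPM + 1) Sec63 did not pass (log2 -0.08, limma adjusted p = 0.617). The ratio of Sec62 to Sec63 was 1.58 and 1.81 in normal pancreas and 1.04, 1.12 and 0.914 in the tumours, with no overlap.

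The subunits of the TRAP complex, which assists the channel, differed most within this class. Ssr1 (TRAP alpha) stood at 6.71 and 7.31 TPM in normal pancreas and at 28.7, 22.9 and 23.4 in the tumours. Ssr4 (TRAP delta) stood at 208 and 185 TPM in normal pancreas and at 137, 115 and 113.5 in the tumours. The tumours were thus all above normal for one subunit and all below for another. Relative to the list Ssr1 was higher by 2.11 (edgeR adjusted p = 7.90e-05), Ssr2 by 1.19 (edgeR adjusted p = 0.000541) and Ssr3 by 1.010 (edgeR adjusted p = 0.00179), while Ssr4 did not pass (log2 -0.22, edgeR adjusted p = 0.271). With TMM, Ssr1 did not pass (log2 0.31, edgeR adjusted p = 0.172), and with the length trend of each library removed it was lower by that test (log2 -0.48). Ssr4 over Ssr1 was 30.9 and 25.3 in normal pancreas and 4.78, 5.01 and 4.86 in the tumours.

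Of the 11 chaperones 8 were lower, 1 higher and 2 did not pass with TMM, beside 27.8% of all genes lower and 39.2% higher. With total counts only 8 were higher and 1 lower (93.3% and 2.37% of all genes). Calnexin and calreticulin, the lectins that hold newly glycosylated proteins, had the highest log2 fold changes of the class with TMM. Canx rose from 19.6 and 20.2 TPM to 90.3, 82.55 and 79.35, a TMM log2 fold change of 0.62 (SE 0.18, edgeR adjusted p = 0.0216). Calr was at 47.2 and 45.8 TPM against 122, 98.1 and 118. It did not pass with TMM (log2 -0.26, SE 0.21, edgeR adjusted p = 0.315) and was higher relative to the list (log2 1.53, edgeR adjusted p = 0.000507). Calr over Canx went from 2.41 and 2.27 to 1.35, 1.19 and 1.49.

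The central chaperones sat between. Hspa5 stood at 142 and 148 TPM in normal pancreas and at 165, 133 and 144 in the tumours, where it had the highest mean TPM of the members, though Hsp90b1 stood above it in replicate 3. Its groups overlapped. It was lower with TMM (log2 -1.37, SE 0.23, edgeR adjusted p = 0.00255), higher with total counts only (1.80, edgeR adjusted p = 0.000225), and did not pass relative to the list (0.43, edgeR adjusted p = 0.134). Hsp90b1 (GRP94) was at 76.0 and 78.8 TPM against 136, 111 and 153, all tumours above normal. Hyou1, a nucleotide exchange factor of Hspa5, was at 18.8 and 23.2 TPM against 53.7, 36.97 and 50.8. Relative to the list Hsp90b1 was higher by 1.04 (edgeR adjusted p = 0.00741) and Hyou1 by 1.38 (edgeR adjusted p = 0.00102). With TMM Hyou1 did not pass (log2 -0.41, edgeR adjusted p = 0.149), and Hsp90b1 was lower (log2 -0.74, edgeR adjusted p = 0.0463) but missed the test without any 1 of 4 libraries, with adjusted p from 0.0765 to 0.218.

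The J proteins that bring clients to Hspa5 went separate ways. Dnajb11 stood at 33.0 and 32.0 TPM in normal pancreas and at 9.74, 9.83 and 9.43 in the tumours. Dnajc3 was at 27.7 and 27.4 TPM against 14.5, 11.03 and 13.6. Dnajb9, which also restrains Ern1, was at 3.97 and 4.31 TPM against 8.86, 7.59 and 7.69. All tumours thus lay below normal for Dnajb11 and Dnajc3 and above for Dnajb9. Relative to the list the log2 values were -1.38, -0.71 and 1.32 (edgeR adjusted p = 0.000165, 0.00831 and 0.000307). The ratio of Hspa5 to Dnajb11 rose from 4.30 and 4.61 to 16.9, 13.5 and 15.3. Sdf2l1, a partner of Dnajb11, was at 43.6 and 42.8 TPM against 17.6, 14.5 and 15.03, lower relative to the list (log2 -1.11, edgeR adjusted p = 0.000377).

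Manf and Creld2, small secreted proteins that are raised by endoplasmic reticulum stress, also parted. Creld2 fell from 63.9 and 63.8 TPM to 9.57, 13.3 and 8.69, a TMM log2 fold change of -4.06 (SE 0.20, edgeR adjusted p = 3.22e-05), and was lower under every scaling. Manf was at 100.3 and 84.9 TPM against 58.4, 61.99 and 62.35. It did not pass relative to the list (log2 -0.04, edgeR adjusted p = 0.828). Manf over Creld2 was 1.57 and 1.33 in normal pancreas and 6.10, 4.66 and 7.17 in the tumours.

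Of the 7 disulfide enzymes 4 were lower and 3 higher with TMM, beside 27.8% and 39.2% of all genes. This class held both extremes of the list. Pdia2, a disulfide isomerase known for its pancreatic expression (chromosome 17, 26195999 to 26199087, - strand, GRCm38), had the highest TPM of the members in normal pancreas. It stood at 867 and 777.5 TPM there and at 0.25, 0.17 and 3.26 in the tumours, from 56873 and 55538 estimated counts against 14, 10 and 102. Its TMM log2 fold change was -10.74 (SE 1.69, edgeR adjusted p = 0.00184), and without tumour replicate 3 it was -13.53. Replicate 3, which held the most Pdia2 of the tumours, also held the most acinar RNA, with Cpa1 at 0.61, 0.22 and 49.9 TPM in the tumours and Prss2 at 1.74, 0.08 and 114.07. The part of these cells in the tumour values of Pdia2 was not tested.

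The other isomerases formed a series. P4hb was at 281 and 259 TPM in normal pancreas and at 129.6, 94.5 and 101.5 in the tumours. Pdia6 was at 73.8 and 72.5 TPM against 57.1, 42.9 and 58.9. Pdia3, which works with calnexin and calreticulin, was at 18.4 and 16.55 TPM against 88.97, 55.4 and 73.0, and Pdia4 at 7.59 and 6.83 against 30.5, 24.6 and 23.8. Pdia6 did not pass relative to the list (log2 -0.10, edgeR adjusted p = 0.666). All tumours were below both normal libraries for P4hb and Pdia6 and above for Pdia3 and Pdia4. With TMM, the log2 fold change of P4hb was -2.68 (SE 0.29, edgeR adjusted p = 0.00037), Pdia3 rose by 0.89 (SE 0.25, edgeR adjusted p = 0.0189) and Pdia4 by 0.43 (SE 0.14, edgeR adjusted p = 0.0350). Scaled by totals, P4hb stood at 0.49 and missed the threshold (edgeR adjusted p = 0.103). P4hb over Pdia3 went from 15.3 and 15.6 to 1.46, 1.70 and 1.39.

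The Ero1 oxidases, which hand oxidising equivalents to the isomerases, changed places. Ero1lb (chromosome 13, 12565874 to 12611396, + strand), the form known from pancreas, was at 61.3 and 66.7 TPM in normal pancreas and at 3.0, 5.69 and 5.55 in the tumours. Ero1l (chromosome 14, 45283087 to 45318771, - strand), the widely expressed form, was at 2.46 and 2.02 TPM against 14.3, 7.49 and 5.88. Ero1l was the lowest member of all in normal pancreas. Ero1lb over Ero1l was 24.9 and 33.0 in normal pancreas and 0.210, 0.760 and 0.944 in the tumours, so the order of the pair was turned in each of them. With TMM the log2 fold changes were -5.06 for Ero1lb (SE 0.40, edgeR adjusted p = 0.000117) and 1.12 for Ero1l (SE 0.25, edgeR adjusted p = 0.00752).

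The TMM rises of Canx, Pdia3, Pdia4 and Ero1l missed edgeR's test when either normal library was left out, with adjusted p of 0.0533 at the lowest and 0.199 at the highest. Pdia4 also missed it without tumour replicate 1 (adjusted p = 0.0583) or 3 (0.0631). In these fits without normal replicate 1 or 2 no member was called higher, beside 26% and 26.2% of all genes. With the length trend removed Canx also missed the test (log2 0.41, edgeR adjusted p = 0.0662). The direction of the 4 was the same in each of these fits.

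All 8 degradation genes were lower with TMM, beside 27.8% of all genes. With total counts only 3 were lower, 3 higher and 2 did not pass, where 2.37% of all genes were lower and 93.3% higher. Derl3, a derlin known from secretory cells, went from 86.0 and 88.9 TPM to 1.45, 6.67 and 0.53 (TMM log2 -6.62, SE 0.88, edgeR adjusted p = 0.000904). Without tumour replicate 2 that value was -8.21. Its relatives Derl1, at 8.40 and 8.26 TPM against 10.4, 9.92 and 9.46, and Derl2, at 5.30 and 5.18 against 5.92, 6.28 and 5.46, lay slightly above both normal libraries in every tumour. Both were higher relative to the list, by 0.62 and 1.44 (edgeR adjusted p = 0.00731 and 0.000323). By limma on log2(TPM + 1) neither passed (log2 0.23 and 0.14, limma adjusted p = 0.153 and 0.371). Derl3 over Derl1 was 10.2 and 10.8 in normal pancreas and 0.140, 0.672 and 0.0560 in the tumours, while Derl1 over Derl2 overlapped between the groups at 1.58 to 1.75. Derl3 was highest in tumour replicate 2, where Jchain, a plasma cell gene, was at 48.3 TPM against 9.74 and 7.14 in replicates 1 and 3, and Mzb1 at 9.06 against 0.62 and 0.67. In normal pancreas Jchain was at 0.83 and 0.27 TPM. Of the 8 plasma and B cell markers tested, 1 was higher with TMM, 1 was lower and 6 did not pass. The lower one was Sdc1 (TMM log2 -0.98, edgeR adjusted p = 0.000789). Its TMM-scaled counts were nearly level across the tumours and not raised in replicate 2. The part of plasma cells in the tumour values of Derl3 was not tested.

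The retrotranslocation scaffold moved unevenly. Sel1l, the adaptor of the ligase Syvn1 (HRD1), went from 68.6 and 80.8 TPM to 8.74, 16.9 and 6.51 (TMM log2 -4.70, SE 0.29, edgeR adjusted p = 5.57e-05). Syvn1 itself was at 7.34 and 7.34 TPM against 6.70, 4.93 and 4.95, and did not pass relative to the list (log2 0.07, edgeR adjusted p = 0.707). Edem1, a mannosidase-like protein that marks misfolded glycoproteins, went from 65.0 and 72.5 TPM to 4.02, 7.54 and 4.76 (TMM log2 -4.60, SE 0.24, edgeR adjusted p = 3.22e-05). Edem2 went from 68.6 and 65.85 TPM to 26.1, 19.3 and 19.0 and was lower relative to the list (log2 -1.32, edgeR adjusted p = 0.000436). The groups did not overlap for any of these 4. Sel1l over Syvn1 went from 9.34 and 11.014 to 1.30, 3.42 and 1.32, and Edem1 over Edem2 from 0.948 and 1.10 to 0.154, 0.391 and 0.250. As with Derl3, tumour replicate 2 held the highest Sel1l and Edem1 of the tumours. Herpud1, which joins these proteins into a complex and whose promoter holds the ERSE-II, was at 66.4 and 68.4 TPM against 25.1, 19.1 and 16.4 (TMM log2 -3.24, SE 0.16, edgeR adjusted p = 2.97e-05) and its total-count value of -0.06 missed the threshold (edgeR adjusted p = 0.739).

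**Figure D4:**
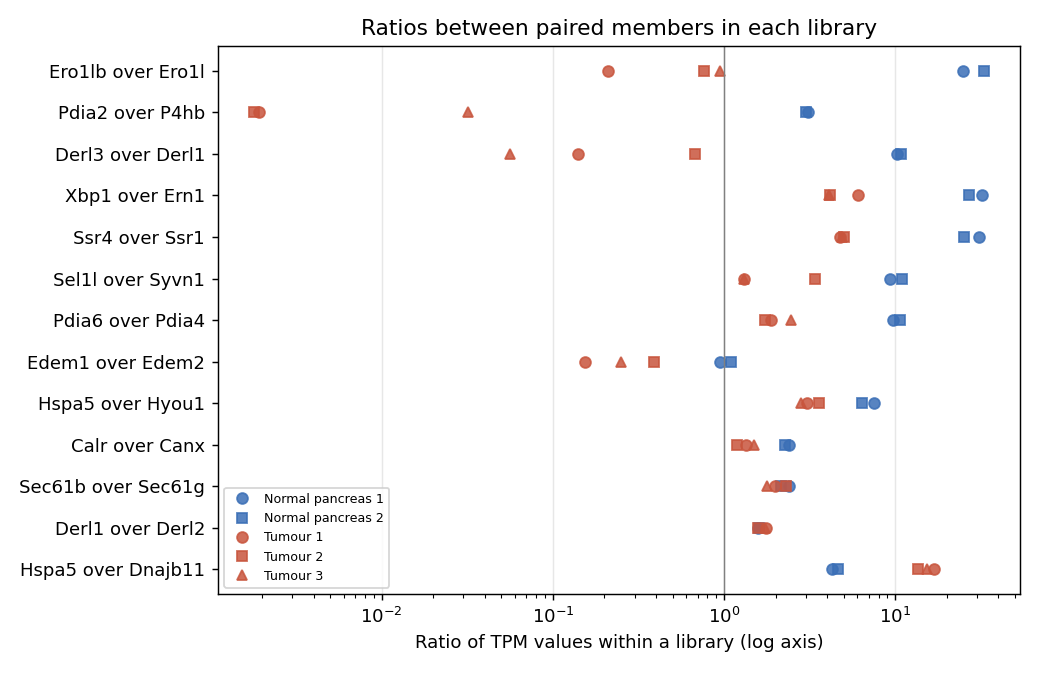
Ratio of the TPM of paired members within each library (log axis), for the 2 normal pancreas libraries (blue) and the 3 tumours (red). Ero1lb over Ero1l lies above 1 in both normal libraries and below 1 in every tumour, whereas Derl1 over Derl2 and Sec61b over Sec61g overlap.

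All 7 stress sensors and factors were lower with TMM, beside 27.8% of all genes. With total counts only 4 were higher, 2 lower and 1 did not pass, where 93.3% of all genes were higher and 2.37% lower. The sensors Ern1, Atf6 and Eif2ak3 were all lower with TMM (log2 -0.58, -1.11 and -1.99) and all higher with total counts only (2.60, 2.07 and 1.19). In TPM and relative to the list they did not move together. Ern1, the kinase and RNase that splices the Xbp1 message, was at 3.56 and 4.18 TPM in normal pancreas and at 7.39, 8.78 and 7.57 in the tumours. Atf6 was at 4.17 and 5.02 TPM against 5.89, 6.38 and 5.33. Every tumour lay above both normal libraries for each, as for 76.1% of all genes tested. Relative to the list both were higher (log2 1.22 and 0.69, edgeR adjusted p = 0.00108 and 0.0134). Both values were below the median of all genes under that scaling, which was 2.19. Eif2ak3, the sensor that is not in the list, was at 7.35 and 8.22 TPM against 5.74, 5.22 and 4.87, and did not pass relative to the list (log2 -0.19, edgeR adjusted p = 0.352).

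Xbp1, the factor made active by Ern1, went the other way in TPM, from 115 and 113 to 45.1, 36.8 and 31.2. It was also lower relative to the list (-1.32, edgeR adjusted p = 0.000696), where Ern1 was higher. With TMM both were lower, Xbp1 by more (log2 -3.13, SE 0.18, edgeR adjusted p = 4.36e-05) than Ern1 (log2 -0.58, SE 0.18, edgeR adjusted p = 0.0244). Scaling by totals left Xbp1 at 0.05 (edgeR adjusted p = 0.772). Xbp1 over Ern1 went from 32.3 and 27.1 to 6.10, 4.19 and 4.12. These gene totals do not tell the spliced message from the unspliced.

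The factors below Eif2ak3 are Atf4 and its targets. Atf4, whose translation that kinase favours, was at 44.4 and 42.3 TPM in normal pancreas and at 22.0, 17.7 and 16.1 in the tumours, lower relative to the list (log2 -0.85, edgeR adjusted p = 0.00265) but higher with total counts (0.52, edgeR adjusted p = 0.0139). Ddit3 (CHOP) was at 13.9 and 13.5 TPM against 3.56, 2.35 and 2.59 (TMM log2 -3.78, SE 0.18, edgeR adjusted p = 2.92e-05). Its second row, at most 3.76 estimated counts in a library, is left out of these values. Trib3, a pseudokinase raised by both, was at 7.04 and 8.02 TPM against 0.60, 0.14 and 0.69 (TMM log2 -5.45, SE 0.52, edgeR adjusted p = 0.000238). Every tumour was below both normal libraries for all 3, and Ddit3 and Trib3 were lower under every scaling. Relative to Atf4 they were lower as well, with Ddit3 over Atf4 at 0.313 and 0.320 against 0.162, 0.133 and 0.161. Ppp1r15a (GADD34), which ends the translational block, was at 3.64 and 3.39 TPM against 2.44, 2.31 and 2.82 and did not pass relative to the list (log2 -0.23, edgeR adjusted p = 0.283). Ppp1r15a over Atf4 was higher in every tumour, at 0.111, 0.130 and 0.175 against 0.0820 and 0.0801.

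Other genes of the same pathways, from lists that hold none of the 42, are given by class as counts with examples. The shares of all genes to read them against are 27.8% lower and 39.2% higher with TMM, 93.3% higher with total counts only, and 79.2% higher and 5.35% lower relative to the 42 members. With TMM, 15 of 19 targeting and translocation genes were lower and 1 higher, and with total counts only 18 were higher. Sec11c, a signal peptidase subunit, fell from 91.8 and 76.1 TPM to 15.7, 19.7 and 16.3 (TMM log2 -3.51, SE 0.19). N-glycosylation genes were lower in 7 and higher in 4 of 18 with TMM, and higher in 14 and lower in 1 of 18 relative to the 42 members. The smallest p values of that list belonged to Krtcap2 and Dpagt1, which were lower (TMM log2 -2.70 and -2.23, SE 0.16 and 0.13). Next came Uggt2, a relative of the glycoprotein folding sensor Uggt1. It rose from 0.71 and 0.76 TPM to 6.61, 5.30 and 4.52 (TMM log2 2.56, SE 0.16). Of 18 further chaperones tested 9 were lower and 7 higher with TMM, with the prolyl isomerase Ppib falling from 260.4 and 234 TPM to 44.9, 55.8 and 44.6 (TMM log2 -3.74, SE 0.20).

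Of 16 further disulfide genes tested 8 were lower and 4 higher with TMM. Erp27, a non-catalytic relative of the isomerases, fell from 258 and 238 TPM to 0.23, 0.18 and 0.60 (TMM log2 -11.21, SE 0.62), a drop of the same order as that of Pdia2. Prdx4, a peroxidase that feeds oxidising equivalents into folding, fell from 134.5 and 119 TPM to 19.2, 18.4 and 15.8 (TMM log2 -4.30, SE 0.15). Of 22 further degradation genes 17 were lower and none higher with TMM, and 15 were higher and 4 lower relative to the 42 members. Of 23 further stress genes tested 15 were lower and 4 higher with TMM. Among them Chac1 fell from 24.2 and 23.8 TPM to 1.26, 0.56 and 0.77 (TMM log2 -6.25, SE 0.31), and Atf5 from 58.9 and 57.98 TPM to 4.39, 2.86 and 2.23 (TMM log2 -5.68, SE 0.24). Chac1 and Atf5 are known targets of Atf4 and Ddit3, and both were lower with total counts only as well, as were Erp27, Prdx4 and Ppib.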

How the data were processed

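RNA sequencing libraries of 3 tumours and 2 normal pancreases were grouped by the tissue label. The submitters' processing notes list the tools Trim Galore 0.60, STAR 2.7 and RSEM 1.31 and the builds mm10 and GRCm38. The annotation release is not given in the sources used here. Gene-level estimated counts and TPM values were deposited, and RSEM divides a read that fits several genes among them. The authors' deposited effective lengths, of another kind in bases, served only the length correction. The FPKM table was not used. The 92 spike-in rows, all at 0, were left out.

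After rounding to integers, the deposited estimated counts entered edgeR 4.0.16 under R 4.3.3 (glmQLFit, glmQLFTest, TMM, filterByExpr, Benjamini-Hochberg over 16810 genes). The procedure was tested on simulated data. There all libraries shared the same make-up apart from genes changed on purpose, so that test does not bear on the choice of scaling. The SE is the absolute log2 fold change over the root of the F statistic. Total counts ran from 6611967 to 51669489. Alternatives were 6 other scalings, DESeq2 1.42.0, limma 3.58.1 on log2(TPM + 1) and log2(TPM + 0.1), no filter, protein-coding genes only, a length correction, each library left out, and tumour replicates 1 and 2 summed. The library size without acinar genes left out 30 genes. Nothing in the labels names separate animals, so p-values cover only the variation among these libraries, part of which may be technical.

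The members, gene lists and promoter motifs were chosen with earlier results of these data known, and the paired ratios after their values were seen. All members may be named, and of each further list up to 3 genes with the smallest p and Eif2ak3. List names Camlg, Ufd1l, Vimp, Selk and Igj were read as Caml, Ufd1, Selenos, Selenok and Jchain. Gene positions are from GENCODE M21, which holds 55094 of the 55573 identifiers with their version. Promoter sequences are from RefSeq, and for 30 of 35 entries the bases past the start were found in a GENCODE transcript of the gene.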

Additional observations from a re-analysis of the deposited data

How the results depend on the processing

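No paired analysis was possible because the labels do not pair tumours with control pancreases, and tumour replicate numbers only name libraries. The TMM counts of 4 members higher and 35 lower stood within 1.5 times under upper-quartile scaling, DESeq2 size factors, a library size without acinar genes, DESeq2's own test, no filter on low counts, protein-coding genes only, the length correction and tumour replicates 1 and 2 summed. Leaving out 1 library at a time gave 0 to 4 members higher and 30 to 34 lower, and over all genes 4631 to 6581 higher and 3443 to 4823 lower. With 1 normal library left, it is assumed to vary as the tumours do. With limma on log2(TPM + 1), 12 members were higher and 19 lower, and with log2(TPM + 0.1) also 12 and 19. Over all genes TMM gave 6587 higher and 4669 lower, total counts only 15681 and 398, ribosomal protein scaling 11694 and 1224, scaling on the members 13311 and 900, and the limma fits 10665 and 1173 and then 11558 and 1192. Members scaled by total counts, ribosomal genes or themselves were higher in 28, 11 and 16 cases and lower in 8, 18 and 17.

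The log2 fold changes below had the opposite sign to TMM. With total counts only they were Sec61a1 1.81, Sec61b 1.54, Sec61g 1.67, Sec62 0.77, Sec63 2.18, Ssr2 2.55, Ssr3 2.38, Ssr4 1.15, Hspa5 1.80, Hsp90b1 2.42, Calr 2.91, Dnajb9 2.695, Dnajc3 0.67, Sdf2l1 0.26, Hyou1 2.76, Manf 1.32, Pdia6 1.28, P4hb 0.49, Syvn1 1.44, Edem2 0.054, Derl1 1.99, Derl2 2.81, Atf4 0.52, Atf6 2.07, Ern1 2.60, Xbp1 0.053, Ppp1r15a 1.14. Scaled on the members they were Sec61a1 0.44, Sec61b 0.18, Sec61g 0.31, Sec63 0.81, Ssr2 1.19, Ssr3 1.010, Hspa5 0.43, Hsp90b1 1.04, Calr 1.53, Dnajb9 1.32, Hyou1 1.38, Syvn1 0.071, Derl1 0.62, Derl2 1.44, Atf6 0.69, Ern1 1.22. Scaled on ribosomal protein genes they were Sec63 0.39, Ssr2 0.76, Ssr3 0.58, Hspa5 0.013, Hsp90b1 0.64, Calr 1.13, Dnajb9 0.89, Hyou1 0.97, Derl1 0.19, Derl2 0.99, Atf6 0.23, Ern1 0.77. With limma on log2(TPM + 1) they were Sec61a1 0.28, Sec61g 0.022, Ssr2 0.84, Ssr3 0.69, Hspa5 0.017, Hsp90b1 0.77, Calr 1.25, Dnajb9 0.81, Hyou1 1.12, Derl1 0.23, Derl2 0.14, Atf6 0.30, Ern1 0.87. With limma on log2(TPM + 0.1) they were Sec61a1 0.29, Sec61g 0.022, Ssr2 0.86, Ssr3 0.71, Hspa5 0.017, Hsp90b1 0.77, Calr 1.27, Dnajb9 0.94, Hyou1 1.15, Derl1 0.25, Derl2 0.16, Atf6 0.35, Ern1 1.014. With the length trend removed they were Ssr1 -0.48, Ssr2 0.013. These alternatives differ from TMM by construction in what is held level between libraries or, for the last, in the length correction. The TMM calls of Dnajb9 and Ern1 missed the test without either normal library, Derl2 also without tumour replicate 1 or 3, Ssr2 without normal replicate 1 (edgeR adjusted p = 0.0904) and Ssr3 without normal replicate 2 (0.0555). Pdia2 and Derl3 rest on as few as 10 and 11 estimated counts in a tumour.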
